A study of Homo sapiens with 3 samples.

Results

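AXIN2, RNF43, ZNRF3, NKD1, LGR5, ASCL2, SP5, NOTUM, APCDD1 and TCF7 are genes that canonical Wnt signaling switches on in the intestinal crypt, and they were followed across HT29 cells grown on 3 substrates. These 10 genes were selected by name, from 21612 genes that could be named on the array, by someone who already knew results of the same arrays, so their levels are given here as a description. Among them, LGR5, ASCL2, SP5 and RNF43 are named in the picture of a heatmap in which the study displayed genes higher on the membranes with these same arrays, and so are MYC, CD44 and SLC12A2, described further on. The names and their direction were read from that picture, and the direction is not independent evidence. The array carried 14 probes for the 10 genes, with 2 probes each for AXIN2, ZNRF3, NOTUM and TCF7 and 1 probe each for the other 6.

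HT29, an established human colon adenocarcinoma line, was cultured on tissue culture polystyrene (TCP, the label 2D), on a chitosan membrane (CS) or on a chitosan membrane grafted with HA, hyaluronan (CSHA). The cells carried no added gene or drug, and how long they had grown before RNA was taken for the arrays is not given in the sources used here. Total RNA of each substrate was labelled with Cy3 and hybridized to 1 single-colour array, and all 3 arrays lay on 1 slide. Since each substrate had 1 array, no difference could be checked against replicates, and p-values are not given.

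In canonical Wnt signaling, a Wnt ligand bound to a Frizzled receptor and an LRP co-receptor stops the destruction complex from marking β-catenin for degradation, and β-catenin then enters the nucleus and works with TCF/LEF proteins on DNA. Several of the genes it switches on restrain the same pathway at the level of the ligand, the receptor or the destruction complex, and R-spondins bound to LGR receptors protect Frizzled from this restraint. In the crypt base this loop maintains the stem cells. HT29 carries a truncated APC, a scaffold of the destruction complex, so that its β-catenin is stabilised without ligand.

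Letters that TCF/LEF proteins are known to bind were sought in the bases before the transcription start, because SP5 is a textbook direct target and was among the members most different on the membranes. RefSeq promoters of the GRCh38.p14 build were matched for 4 of the 10 genes, namely SP5, TCF7, RNF43 and APCDD1, with 6 promoters in all. The letters CTTTGAA and CTTTGAT were sought on both strands in the 250 bases before each start. Of the 6 promoters, only that of SP5 held a match, and of all 35116 promoters of the same length, 2086 (5.94%) held one. The SP5 promoter, at chr2:170715087-170715336 on the plus strand, is shown because it held 3 matches, with first bases at positions -148, -109 and -84 from the start, which the capitals mark.
SP5: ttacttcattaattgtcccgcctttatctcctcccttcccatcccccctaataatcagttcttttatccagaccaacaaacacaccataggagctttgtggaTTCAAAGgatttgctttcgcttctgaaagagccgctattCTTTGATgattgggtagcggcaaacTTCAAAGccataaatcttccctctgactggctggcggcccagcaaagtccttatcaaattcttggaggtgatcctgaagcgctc
The first and the last match lie on the minus strand and so read as TTCAAAG in the printed strand. At least 3 matches occurred in 7 of the 35116 promoters (0.0199%), and this number was chosen after the SP5 promoter had been seen. The matches are letters in a window, and no binding was measured. The letters GGGCGG of a GC box were sought in the same way and lay in 2 of the 6 promoters (TCF7 and APCDD1) and in 42.6% of all, and CAGCTG, an E-box that ASCL2 can bind, lay in 0 of the 6 and in 14.0% of all. TCF7 and RNF43 each had 2 promoters, from start sites 8005 and 14813 bases apart.

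The arrays resembled one another in brightness. The 75th percentile of the processed signal ranged from 337.2 to 422.5, and 48.59% to 51.1% of probes were well above background by the scanner software. Here a level is the log2 signal minus the 75th percentile of its array, and a difference is the gap between the levels of 1 probe on 2 arrays. The error printed with a difference combines the error that the scanner software gave each spot. It covers the measurement of a spot and not the variation between cultures. Among probes printed repeatedly, the median SD over their spots was 0.12, 0.11 and 0.12 (log2) on TCP, CS and CSHA among the dimmest of them and 0.04 on each array among the brightest, when they were ranked into 5 groups by brightness. The cells had the marks of colon epithelium. All of 12 epithelial marker genes were well above background on CS and CSHA, and 11 of them on TCP, where GPA33 was not. The fibroblast genes COL1A1, COL1A2, COL3A1, DCN and LUM and the leukocyte genes MS4A1 and ITGAM were not well above background on any array. Of the 7 stromal genes, SPARC and VIM were just above background on TCP only, at signals of 29.52 and 24.73. Of the 5 leukocyte genes, 3, 2 and 3 were above background on TCP, CS and CSHA, and they did not move one way. CD68 was higher by 0.80 on CS and by more on CSHA. CD3E, at signals of 121.9, 20.61 and 34.41, was lower on both membranes (-1.75 on CSHA, and not well above background on CS). PTPRC differed from TCP by less than its scanner error. Their part in the levels of the crypt genes was not tested.

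Of the 10 members, 7 were measured on every array, as were 10 of the 14 probes. On CS, 4 of the 7 genes were higher than on TCP and 3 were lower by their brightest probes, against 56.8% of all genes compared being higher. None of the 7 reached a 2-fold difference in either direction, while 1.37% of all genes reached it upwards and 1.92% downwards. The median log2 difference of the members was 0.14, beside 0.04 for all 14464 genes. On CSHA, where NOTUM added a lower bound, 6 of 8 members were higher and 2 were lower, against a background of 61.7% higher. ASCL2 and SP5 were at least 2-fold higher and AXIN2 was at least 2-fold lower, and the corresponding shares of all genes were 3.02% and 3.98%. With normexp background correction or the deposited values, ASCL2 alone stayed past 2-fold. The median was 0.37 for the members and 0.13 for all 14624 genes. NOTUM was measured only on CSHA and could only count as higher there, and without it 5 of 7 members were higher, with a median of 0.34. Between the membranes, 5 of 8 members were higher on CSHA than on CS and 3 were lower, against 58.5% of genes higher. No member reached 2-fold between CSHA and CS by its brightest probe, where 2.27% of genes did so upwards and 2.15% downwards. The median was 0.40 beside 0.07, and without NOTUM 4 of 7 were higher, with a median of 0.35. The CS and CSHA differences from TCP use the same TCP array, so an error of that array enters both. The arrays were made from RNA of whole cultures, and fewer cells of a type and less RNA per cell cannot be told apart.

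**Figure D1:**
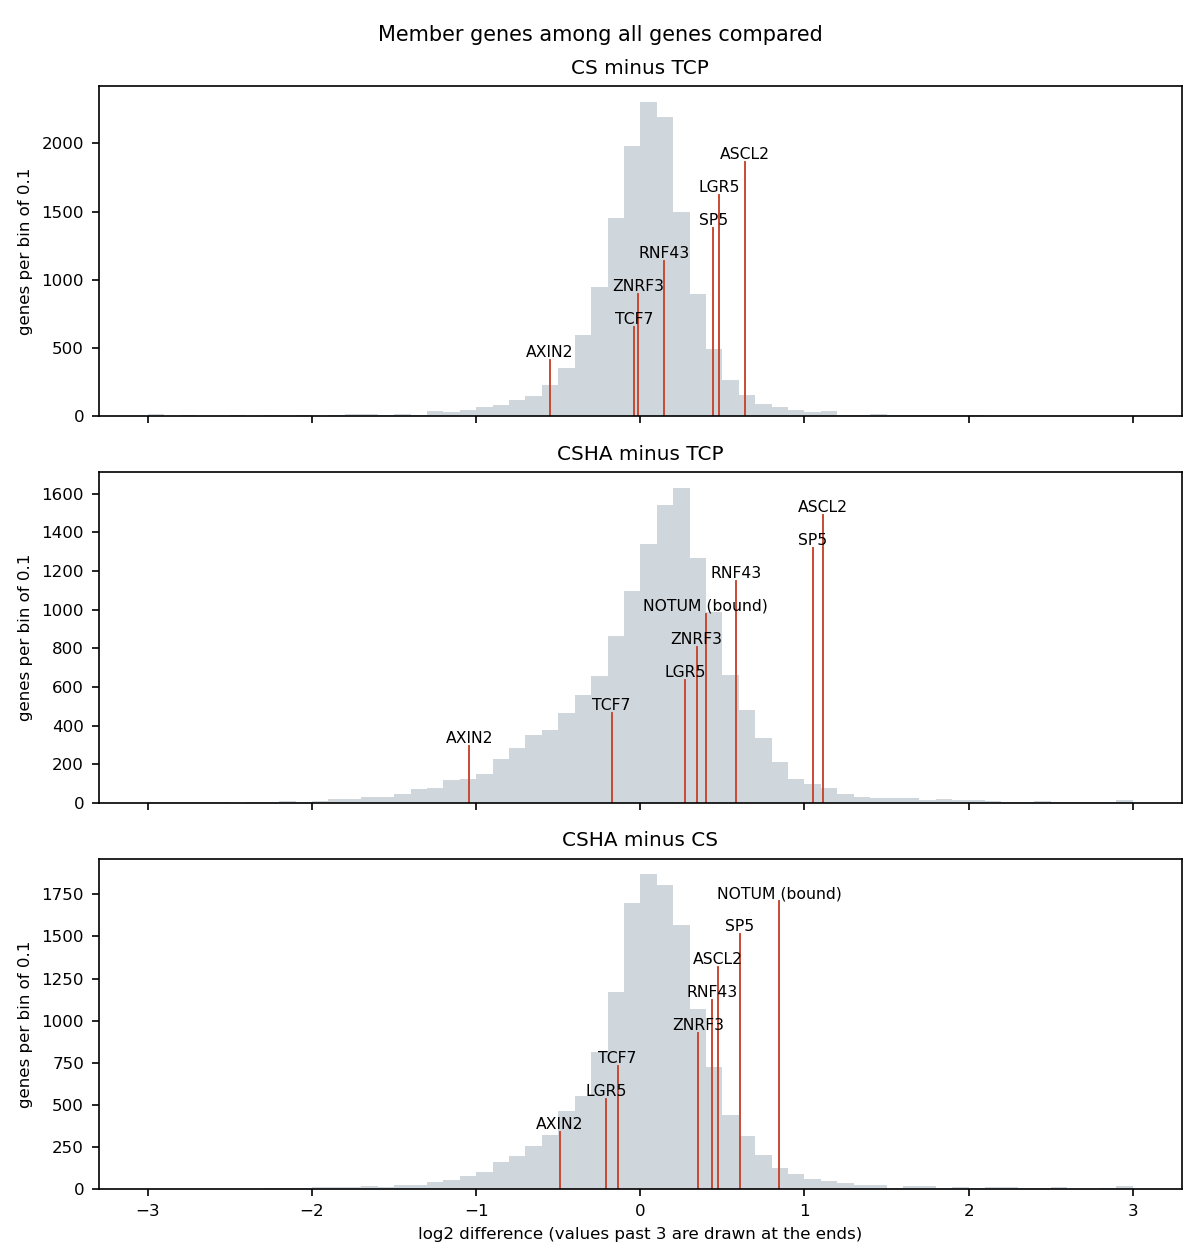
Histograms of the log2 difference of all genes compared (x axis; genes per bin of 0.1 on the y axis), with a red line for each member by its brightest probe; the line heights only separate the names. ASCL2 and SP5 lie to the right of most genes on both membranes and AXIN2 to the left, while TCF7, by its brighter probe, lies inside the bulk; NOTUM is a lower bound.

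On CSHA against TCP, the transcription factors ASCL2 and SP5 had the largest upward differences of the members by their brightest probes. ASCL2, a basic helix-loop-helix factor that sustains the identity of crypt stem cells, had a processed signal of 641.4 on TCP that was 1191 on CS and 1321 on CSHA. Its levels were 0.86, 1.49 and 1.97 in that order, lowest on TCP and highest on CSHA. The difference from TCP was 0.64 (error 0.20), or 1.56-fold, on CS and 1.11 (error 0.20), or 2.16-fold, on CSHA. Both exceeded the scanner error, and ASCL2 was higher than 96.6% of the genes compared on CS and 97.7% on CSHA. CSHA exceeded CS by 0.48 (error 0.20).

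SP5, a zinc finger factor of the Sp family that Wnt signaling induces directly and whose promoter is printed above, followed the same order. Its signal on TCP, CS and CSHA was 1856, 3014 and 3658, and its levels were 2.39, 2.83 and 3.44. The difference from TCP was 0.44 (error 0.20), or 1.36-fold, on CS and 1.05 (error 0.20), or 2.07-fold, on CSHA. SP5 was 0.60 higher on CSHA than on CS, again beyond the scanner error of 0.20. Among the 7 genes measured on every array, ASCL2 and SP5 had the closest patterns to each other, with a Euclidean distance of 0.14 between their levels on the 3 arrays after centring each gene on its mean. That is 3 points from 1 slide, and the distance is a description of these arrays.

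TCF7, which encodes the DNA-binding partner of β-catenin also called TCF1, gave different answers by its 2 probes. The brighter probe was printed 10 times per array, and its spots read 1750 to 1917 (median 1854) on TCP, 2079 to 2210 (median 2138) on CS and 1507 to 1627 (median 1546) on CSHA. On CSHA, 2 of the 10 spots were marked as outliers by the scanner software and left out. The spots of the 3 arrays did not overlap in signal, with CS highest and CSHA lowest, in the order of the 75th percentiles of the whole arrays. After the shift to the 75th percentile, the levels were 2.38, 2.34 and 2.21, with an SD over spots of 0.04, 0.03 and 0.04. The differences from TCP were -0.04 on CS and -0.18 on CSHA, and the latter was below the scanner error of 0.20.

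The dimmer TCF7 probe, with 1 spot per array, read 354.8 with TCP RNA, 454.2 on CS and, highest of all, 725.5 on CSHA. Its level was nearly equal between TCP and CS, with a difference of 0.10 (error 0.21), and higher on CSHA by 1.10 (error 0.21), or 2.15-fold. CSHA exceeded CS by 1.0 (error 0.21) at this probe. Both probes are assigned to NM_003202 by the file, and which of the gene's transcripts each one reads was not tested. The probes were 1.28 apart on CSHA against TCP, and among 3511 genes with at least 2 measured probes, 4.5% had a gap as large and the median gap was 0.32. Probes of opposite sign are common, at 39.5% of those genes.

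**Figure D2:**
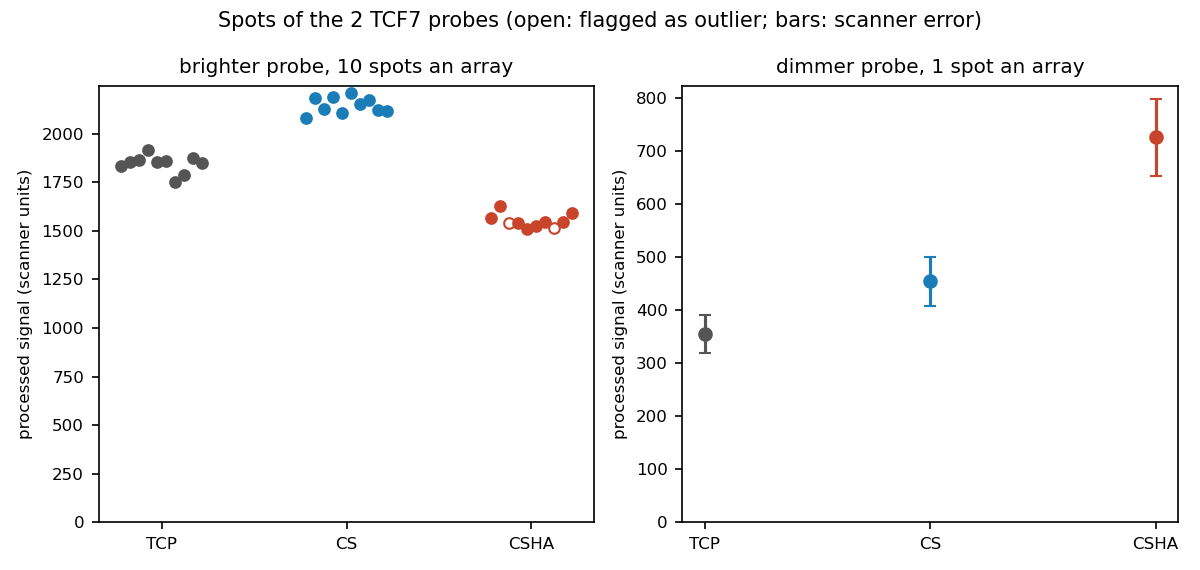
Processed signal in scanner units (y axis, from 0) of each spot of the brighter TCF7 probe (left, open circles are spots left out as outliers) and of the single spot of the dimmer probe (right, bars are the scanner error), on TCP, CS and CSHA. The signals are not shifted for array brightness: the left probe runs lowest on CSHA and the right probe highest, at 725.5.

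LGR5, the receptor for R-spondins that marks crypt base stem cells, was near the limit of detection on every array. It read 32.13 on TCP, 53.49 on CS and 36.94 on CSHA, where the lowest signals well above background on these arrays were 24.1, 21.11 and 22.64. The levels were -3.46, -2.98 and -3.19, so that CS was highest and TCP lowest. LGR5 was higher than on TCP by 0.48 (error 0.33) on CS and by 0.27 (error 0.36) on CSHA. The CSHA difference was within the scanner error, as was the gap of -0.21 (error 0.30) between CSHA and CS. With the log2 values that the authors deposited, LGR5 was 0.10 higher on CS and 0.12 higher on CSHA.

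Among the feedback inhibitors, the pair of membrane E3 ubiquitin ligases was higher on CSHA. RNF43, which removes Frizzled from the cell surface, read 16790 on TCP, 22160 on CS and 23980 on CSHA, at levels of 5.57, 5.71 and 6.15. It was 0.14 (error 0.20) higher on CS, within the scanner error, and 0.58 (error 0.20) higher on CSHA. CSHA exceeded CS by 0.44. Against TCP, RNF43 on CSHA was higher than 88.4% of the genes compared.

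ZNRF3, the homologue of RNF43 with the same role, did the same at both of its probes. The brighter one read 9495 on TCP, 11240 on CS and 11470 on CSHA, with levels of 4.75, 4.73 and 5.09. The dimmer one read 747.9, 893.4 and 1098 on TCP, CS and CSHA, with levels of 1.08, 1.08 and 1.70. On CS the probes were at -0.01 and 0.00 against TCP, both within the error of 0.20. On CSHA they were higher by 0.34, or 1.27-fold, and by 0.62, or 1.54-fold, and both exceeded that error. By its brighter probe, ZNRF3 on CSHA was higher than only 72.9% of the genes compared. Over the 3 arrays, RNF43 and ZNRF3 each had the other as its nearest measured member, at a distance of 0.17.

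AXIN2, the scaffold of the destruction complex that is a standard readout of Wnt activity, went the other way. Its brighter probe read 1343 on TCP, 1095 on CS and 621.8 on CSHA, at levels of 1.92, 1.37 and 0.88. The difference from TCP was -0.55 (error 0.20), or 1.46-fold lower, on CS and -1.04 (error 0.20), or 2.06-fold lower, on CSHA, and CSHA minus CS was -0.49 (error 0.20). Only 5.49% of the genes compared were lower than this probe on CS, and 3.57% on CSHA.

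The dimmer AXIN2 probe, assigned to the same accession, NM_004655, did not carry that difference. It read 920.3 on TCP, 1039 on CS and 792.4 on CSHA, at levels of 1.38, 1.30 and 1.23. It differed from TCP by -0.08 on CS and by -0.15 on CSHA, both below the scanner error of 0.20. The gap between the probes was 0.47 on CS and 0.90 on CSHA, and 10.9% of 3560 genes and 13.0% of 3511 genes with at least 2 measured probes had a gap as large. By its brighter probe, AXIN2 was the farthest of the measured members from ASCL2, at a distance of 1.53 over the 3 arrays.

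The remaining feedback inhibitors, NOTUM, APCDD1 and NKD1, were dim. NOTUM, an enzyme that strips the lipid from Wnt ligands, was well above background only on CSHA and at only 1 of its probes, which read 5.355 on TCP, 4.736 on CS and 30.28 on CSHA. Against the lowest signal well above background on the other arrays, the bound for NOTUM on CSHA was 1.32-fold over TCP and 1.80-fold over CS. That lowest signal is not a detection limit for every probe. The R-spondin gene RSPO1 read 30.8 on TCP and was not well above background there. The signal on CSHA was itself near the limit of 22.64, and the second NOTUM probe, at 5.312, 4.71 and 4.918, was not well above background on any array.

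APCDD1, a membrane protein that binds Wnt ligands and LRP5, read 6.658 on TCP, 5.782 on CS and 5.982 on CSHA. NKD1, which binds Dishevelled and restrains the pathway inside the cell, read 5.425, 4.471 and 4.778. Neither was well above background on any array, so no difference is given for them.

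**Figure D3:**
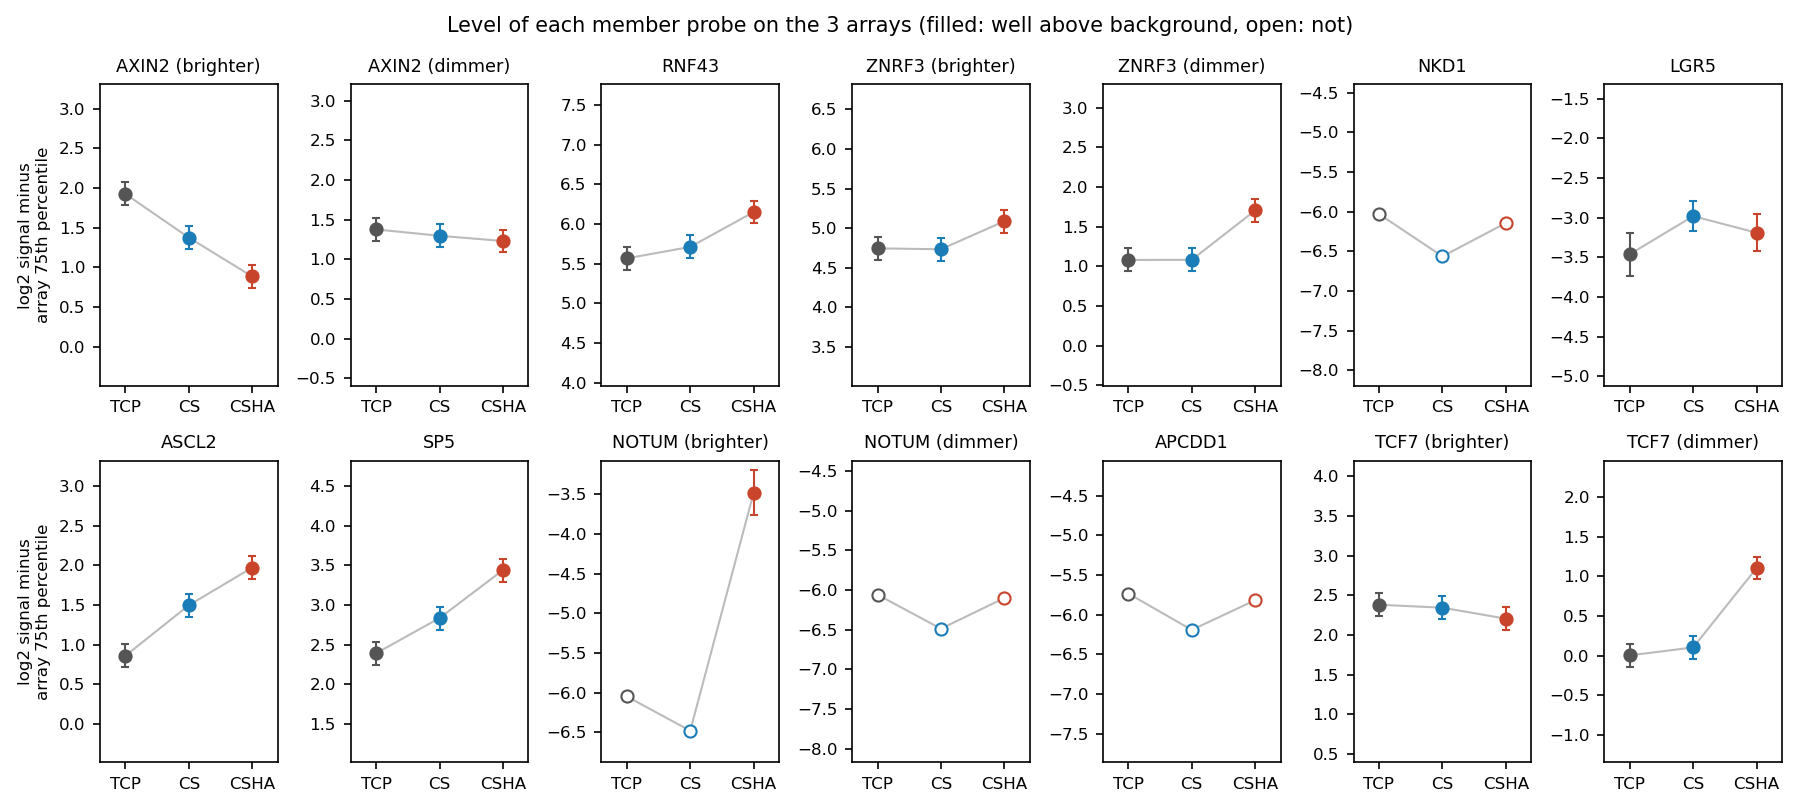
Level of each of the 14 probes (y axis: log2 signal minus the 75th percentile of its array; every panel spans the same range of log2 units) on the 3 arrays (x axis), with the scanner error as bars; open circles were not well above background. ASCL2, SP5, RNF43 and ZNRF3 are highest on CSHA, the brighter AXIN2 probe is lowest there, and NKD1 and APCDD1 are open throughout; levels are not comparable between panels.

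**Figure D4:**
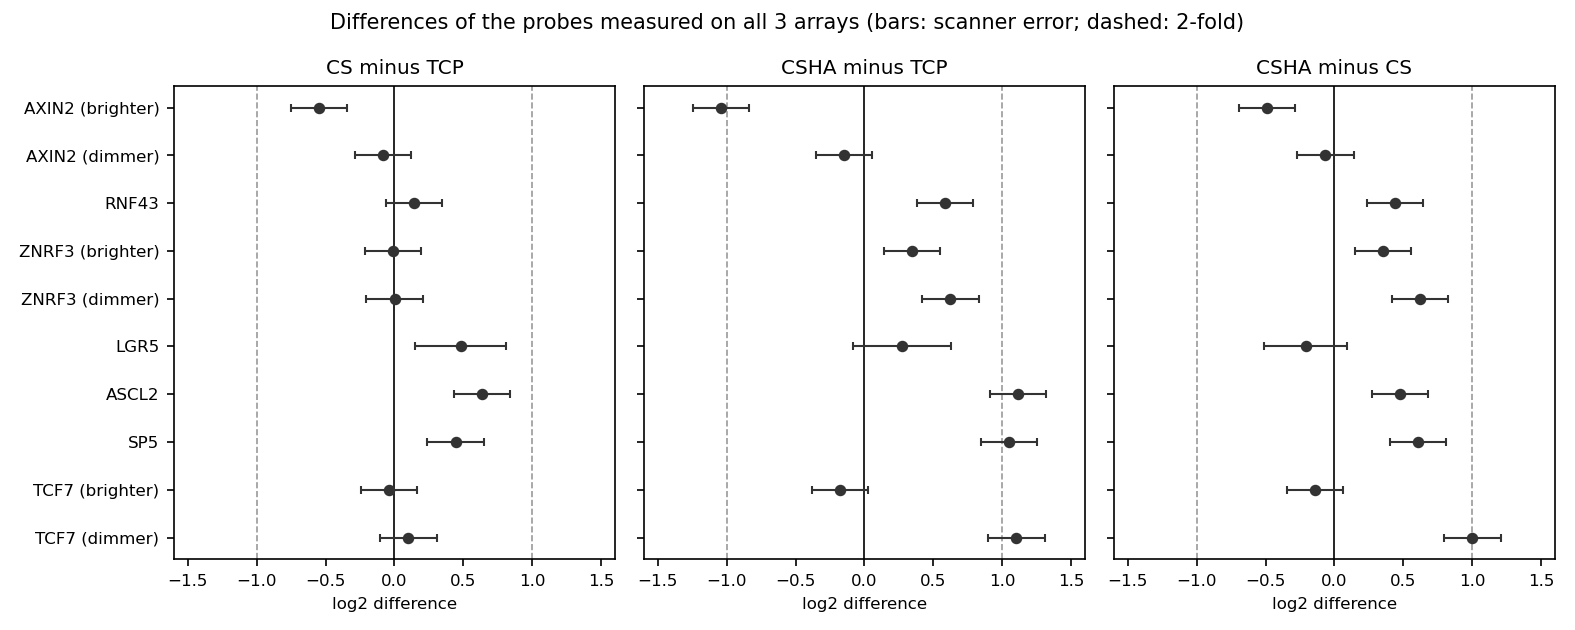
Log2 differences (x axis) of the 10 probes measured on all arrays for CS minus TCP, CSHA minus TCP and CSHA minus CS, with the combined scanner error as bars and dashed lines at 2-fold. Both ZNRF3 probes lie above 0 on CSHA, whereas the probes of AXIN2 and of TCF7 lie apart, at -1.04 and -0.15 and at -0.18 and 1.10.

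By role, the inhibitors and the stem cell group are given apart. Of the 6 feedback inhibitors, 3 had a value on CS, with 1 higher and 2 lower and a median of -0.01. Of the stem cell receptor and factors (LGR5, ASCL2, SP5 and TCF7), 3 of 4 were higher, and their median was 0.46, beside 56.8% of all genes higher and a median of 0.04. On CSHA, 2 of the 3 inhibitors measured on every array were higher, at a median of 0.34, and 3 of 4 of the stem cell group, at a median of 0.66, beside 61.7% of all genes. The difference between these groups was not tested.

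None of the listed genes of the pathway's machinery, from ligand secretion and co-receptors to the nuclear complex, reached a 2-fold difference by its brightest probe. The list held no Frizzled receptor. It mixed genes that pass the signal on with genes that restrain it, such as APC and GSK3B, so its counts give no direction of signaling. Of 27 listed, 26 were on the array and 23 had a value, with 14 higher and 9 lower on CS and 18 higher and 5 lower on CSHA. The medians of 0.13 and 0.17 stood beside 0.04 and 0.13 for all genes, of which 56.8% and 61.7% were higher. The extremes on CS were AMER1, a membrane anchor of APC, at 0.38, and BCL9L, a β-catenin co-activator, at -0.56. The extremes on CSHA were GSK3B, the kinase that phosphorylates β-catenin, at 0.66, and DVL3, a Dishevelled protein, at -0.62. BCL9L disagreed between probes on CSHA, at 0.31 and -1.32, and so did PYGO2, at -0.10 and 1.35. The second probe of each was thus past 2-fold, in opposite directions.

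CTNNB1, the gene for β-catenin, read 4557 on TCP, 6597 on CS and 5085 on CSHA, with differences of 0.28 and 0.23 (error 0.20) by its brighter probe and of 0.06 and -0.13 by the other. LEF1, TCF7L1 and PYGO1, which act with β-catenin on DNA, were not well above background on any array. Of the 4 R-spondins, only RSPO3 was, at a signal of 34.8 on TCP, 37.15 on CS and 45.09 on CSHA.

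Other targets of the pathway were higher about as often as all genes. Of 17 listed, 13 had a value, with 8 higher and 5 lower on CS (median 0.08) and 9 higher and 4 lower on CSHA (median 0.23), beside 56.8% and 61.7% of all genes higher and medians of 0.04 and 0.13. MYC, the growth-promoting transcription factor, was the highest on both membranes, at 0.39 and 0.85 (error 0.20), from signals of 19580 on TCP, 30700 on CS and 33560 on CSHA. CD44, the hyaluronan receptor, was higher by 0.31 and 0.67, and by 0.46 and 0.66 at its other probe. DKK1, a secreted inhibitor of LRP co-receptors, was the lowest on CS, at -0.97, with -0.86 on CSHA. CCND1, cyclin D1, was the lowest on CSHA, at -0.89, with -0.43 on CS. By the brightest probe of each, AXIN2, DKK1 and CCND1 were lower, beyond their scanner error, on the same membranes on which MYC, CD44, ASCL2 and SP5 were higher. These genes include the extremes of their lists, and the dimmer AXIN2 probe was within its error on both membranes. The share of all genes that differed by more than their scanner error was not counted.

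Of 13 other genes used as crypt or colon stem cell markers, 11 had a value, with 7 higher and 4 lower on CS (median 0.05) and 9 higher and 2 lower on CSHA (median 0.20), against the same shares and medians of all genes. SLC12A2, an ion transporter enriched in crypt base cells, was the highest on both, at 0.34 and 0.74. TERT, the catalytic subunit of telomerase, was the lowest on both, at -0.97 and -0.70. OLFM4 and SMOC2, which mark LGR5-positive stem cells, were not well above background on any array.

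Most markers of differentiated colon cells that were measured on every array were higher on the membranes than on TCP. Of 12 genes, 6, 8 and 9 were well above background on TCP, CS and CSHA, where their summed signal was 838, 3310 and 6530. The sum is not adjusted for array brightness, and on the membranes most of it came from TFF3, SPINK4 and FCGBP. They read 1652, 981.2 and 243.3 on CS and 3049, 2407 and 711.3 on CSHA. Relative to TCP, 5 of the 6 measured on every array were higher on CS and 5 of 6 on CSHA, beside 56.8% and 61.7% of all genes. The smallest of these on CS, CA2 at 0.06, was within its scanner error of 0.28. FABP1 on both membranes, and CA1 and AQP8 on CSHA, add lower bounds that could only be higher, because TCP did not measure them. The goblet cell gene SPINK4 was the highest of them, at 3.55 on CS and 5.17 on CSHA, while MUC2, the major goblet cell mucin, gave -0.25 and -0.10 with its brightest probe but 0.24 and 0.98 with another, and CLCA1, ZG16 and SLC26A3 were not well above background on any array. The part of these cells in the levels of the crypt genes was not tested.

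The size of the differences depended on how the background was treated and how the arrays were brought to a common scale. Over 7 ways of processing, ASCL2 on CSHA ranged from 1.02 to 1.54, SP5 from 0.97 to 1.48 and RNF43 from 0.53 to 1.014. The lowest values of ASCL2 and SP5 came with normexp, which changes the background correction. The brighter AXIN2 probe ranged from -1.10 to -0.61, so that its 2-fold difference did not hold under each of them, and neither did that of SP5. The dimmer AXIN2 probe ranged from -0.20 to 0.28 and the brighter TCF7 probe from -0.23 to 0.25, and each was above 0 only where the arrays were scaled to the spike-in probes. That scaling shifted all genes on CSHA, from a median of 0.13 to one of 0.56. The dimmer TCF7 probe stayed between 0.97 and 1.53.

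**Figure D5:**
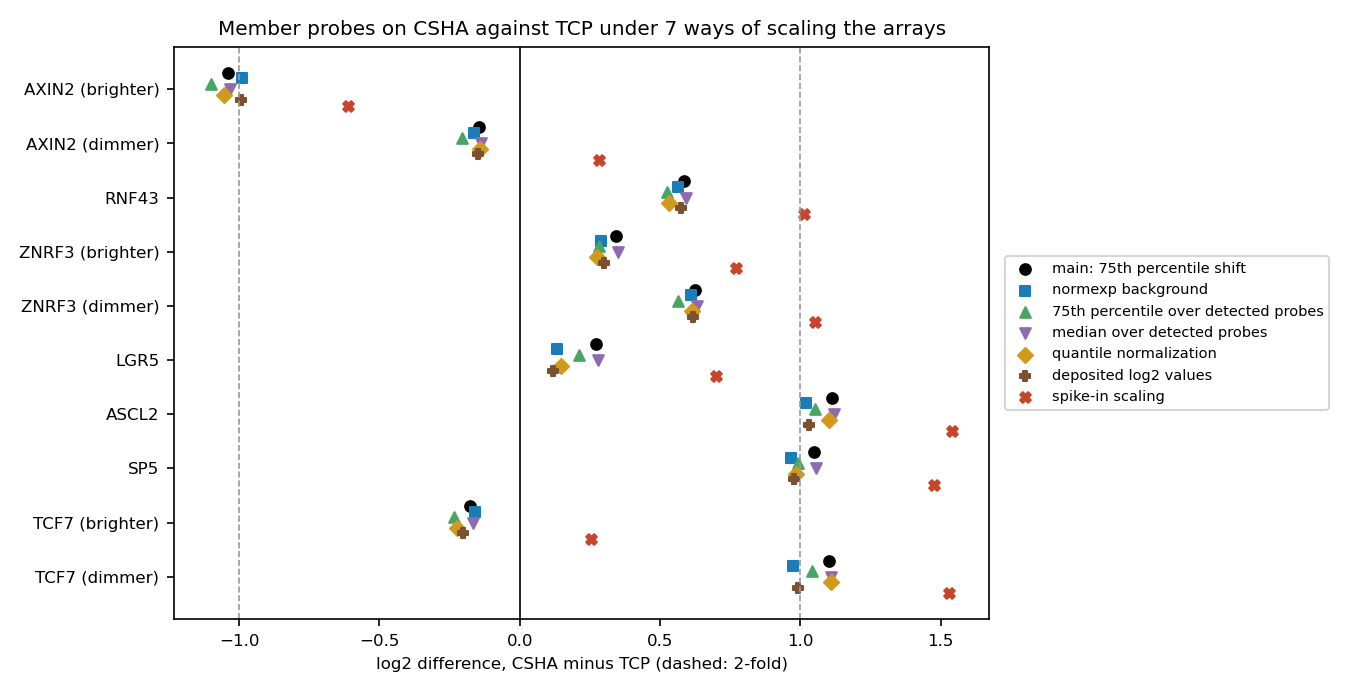
Log2 difference of CSHA minus TCP (x axis, dashed lines at 2-fold) for the 10 measured probes under 7 ways of treating the background or scaling the arrays (symbols). The spike-in scaling (crosses) moves every probe to the right, as it does the median of all genes, to 0.56; ASCL2 and SP5 stay near or above 1.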

How the data were processed

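HT29 cells on TCP, CS and CSHA were profiled on 3 single-colour arrays, 1 per substrate. The authors deposited the spot intensity of each array as the scanner software wrote it, as a background-corrected processed signal with its error and as median signals, with no normalization between arrays. They also deposited a table of log2 values. Its differences between arrays equal those of the log2 median signals plus a constant, to within 9.8e-08 at 62976 spots, so its direction is that of the signal, without background subtraction and centred per spot. Its column medians were 0.01, -0.13 and 0.04. Feature Extraction 10.7.3.1 is in the headers, the methods name another version, and the labels and methods name different RNA kits. Of the deposited columns, 0 lacked a sample.

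Signals of the 58717 spots that were not controls were raised to a floor of 1 (0 spots were under it) and converted to log2. Outlier-flagged spots were left out, 0 spots were saturated, and repeated spots were averaged per probe. The probe values were then set relative to the 75th percentile of their array over probes. RefSeq genes of GRCh38.p14 gave symbols for the accessions of 29997 of 50599 probes. The brightest probe stood for each of 21612 genes, and every member probe is given. A gene was compared where both arrays measured it well above background. Where only 1 did, the difference is a lower bound. It was taken against the dim signal or the lowest signal well above background on that array, whichever was higher. If the bound did not keep the direction of the array that measured the gene, the gene was left out, as was AQP8 on CS against TCP. With 1 array per substrate there was no test, and genes were counted at 2-fold. The calculation of differences was tested on simulated arrays that all detected the same probes. Lower bounds and the choice among probes of a gene were therefore not tested there. The members and gene lists were chosen with earlier results of these data known. Of each list of pathway or stem cell genes, the highest and lowest on each membrane are named, with CTNNB1, MYC and CD44; a few others, cell type markers among them, were named after their values were seen. The 9 alternatives were normexp with an offset of 50, 75th percentile or median over detected probes, quantile normalization, 7 spike-in probes, no filter, a stricter filter, the mean over probes and the deposited values, besides a threshold of 1.5-fold. Tools were Python 3.11.15 with pandas 2.3.3 and numpy 2.4.6, and limma 3.58.1 under R 4.3.3.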

Additional observations from a re-analysis of the deposited data

How the results depend on the processing

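No paired analysis was possible because each substrate had 1 array, and for the same reason no array could be left out. The slide could not be entered as a block, since all arrays shared it. Of the values of the members' counts and medians under the alternatives, 75 stayed close to the reported value, 8 moved and 1 changed sign. The median on CS was -0.024 without the filter on dim probes. Scaling to spike-in probes gave medians of 0.80 on CSHA and 0.77 for CSHA against CS. At 1.5-fold, 1 member passed on CS in place of 0, and 2 passed between the membranes in place of 0. With 2-fold, the members past it on CSHA were 1 with normexp and 1 with the deposited values in place of 3, and between the membranes 1 with spike-in scaling and 1 without the filter. Of 203 values for single members, 11 changed sign. They were TCF7 under spike-in scaling and with the mean over probes (0.46 on CSHA), ZNRF3 on CS under normexp and spike-in scaling, and LGR5 between the membranes under normexp, spike-in scaling and the deposited values, and in each the reported difference was within its scanner error. Spike-in scaling also raised the share of all genes higher on CSHA than on TCP from 61.7% to 84.1% and than on CS from 58.5% to 86.6%. Without the filter, 44.4% of genes were higher on CS. Genes past 2-fold upwards and downwards on CSHA numbered 442 and 582, against 155 and 292 with normexp, 123 and 277 with the deposited values, 1768 and 181 with spike-in scaling and 1130 and 1190 without the filter. Detection limits what can be said of LGR5, NOTUM, NKD1 and APCDD1. The cause of these changes was not tested.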
